A study of Rattus norvegicus with 24 samples.

Results

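Gene expression in irradiated rat neurospheres (NSps) that received ascorbic acid was compared with that in irradiated NSps that received Noggin. The comparison took the 4 samples labelled with ascorbic acid and 1 Gy (AGy, columns MO21 to MO24) and the 4 labelled with Noggin and 1 Gy (NGy, columns MO17 to MO20), which were 8 of the 24 samples of the series. NSps are free-floating clusters that neural progenitor cells form when they cannot attach, and these were grown from the brains of Sprague Dawley rat fetuses at embryonic day 15. All AGy and NGy samples received 1 Gy of X-rays on day 3 after seeding, with 200 µM ascorbic acid or 5 µM Noggin given before and after the exposure. The series also held irradiated NSps with neither agent (CGy), non-irradiated NSps with ascorbic acid (A) or Noggin (N), and non-irradiated NSps with neither (C), with 4 samples in each group. The question asked of AGy against NGy was how the transcriptomes left by these treatments differed when the radiation dose was the same.

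Noggin is a secreted protein that binds bone morphogenetic proteins (BMPs) outside the cell and keeps them from their receptors. BMP signalling through SMAD proteins is one of the main routes by which neural progenitor cells are directed to the astrocyte fate. Ascorbic acid (vitamin C) is an antioxidant and also keeps iron in its reduced form in dioxygenases such as the collagen and HIF prolyl hydroxylases and the TET enzymes, which oxidise methylated cytosine. The agents therefore act on different molecules, one at the cell surface and the other within the cell.

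The tables listed 16478 genes by Ensembl identifier only, and 0 of these could be paired with a gene symbol. Genes are for that reason described by their number, size of change, level and behaviour in the other groups, with 4 given by identifier, and the labelled cell type could not be checked against its marker genes. The values were TPM, the abundance of a gene's transcripts scaled to a fixed total per sample. In the AGy samples the listed genes summed to 643344 to 655289 TPM and in the NGy samples to 650049 to 655264 TPM. The number of genes at 1 TPM or more was 9477 to 9720 in AGy and 9386 to 9497 in NGy, and the 100 most abundant genes held 40.2% to 43.8% and 41.4% to 43.0% of the TPM. No pair of samples held identical values. The sample labels carry numbers, and every number of an AGy or A sample is below every number of an NGy or N sample. The CGy numbers run alongside those of NGy, and 1 C number lies below all NGy, N and CGy numbers. That C number lies close to 1 AGy and 1 A number, and these lie far below all other numbers. The remaining AGy and A numbers lie nearer to those of NGy, N and CGy. Columns could not be matched to single labels, so whether the AGy or A samples differ along this break was not tested. The agent and whatever the numbering stands for cannot be told apart. The labels do not say whether the samples of a group came from separate cultures or animals, so the p-values measure only the spread between these samples, which may be technical.

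Irradiated NSps with ascorbic acid differed from irradiated NSps with Noggin at 882 of 9840 genes (8.96%). The genes tested averaged 1 TPM or more in AGy, in NGy or in both, and calls required a change of 1.5-fold or more on log2(TPM + 1) and a limma p, adjusted by the Benjamini-Hochberg method, of 0.05 or less. Of these genes, 507 were higher in AGy (5.15% of those tested) and 375 were lower (3.81%), so that 57.5% of the calls were rises. That share was 50.3% with quantile scaling. It ran from 51.3% (without AGy sample MO24) to 61.2% (without AGy sample MO21) when single samples were left out. The median change over all genes tested was 0.0018 on the log2 scale. Among the called genes the median change was 0.83 for those higher and -0.83 for those lower, which is 1.78-fold in either direction. In RNA from whole spheres, fewer cells of a type and less RNA per cell cannot be told apart.

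Most of the changes were moderate. At least a 2-fold change was found for 158 of the genes higher in AGy and 103 of those lower, and at least a 4-fold change for 9 and 6. Among the called genes the largest rise was 2.45 and the largest fall -2.27 on the log2 scale, the 10th largest 1.94 and -1.92, and the 50th largest 1.32 and -1.29. The 4 AGy samples lay wholly above or wholly below the 4 NGy samples in 832 of the 882 called genes, and in the other 50 the groups overlapped. Among all genes tested, the called genes included, 2677 (27.2%) were apart in this way. The called genes were chosen on these same samples, which favours such separation. An adjusted p of at most 0.05 was reached by 1955 genes (19.9%) without the requirement on size. A further 289 genes changed by at least 1.5-fold without being called, 2 of them by more than the largest called rise (up to 2.94). The median standard error of a change was 0.11, which gave a 95% interval of the median width of 0.25 to either side.

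**Figure D1:**
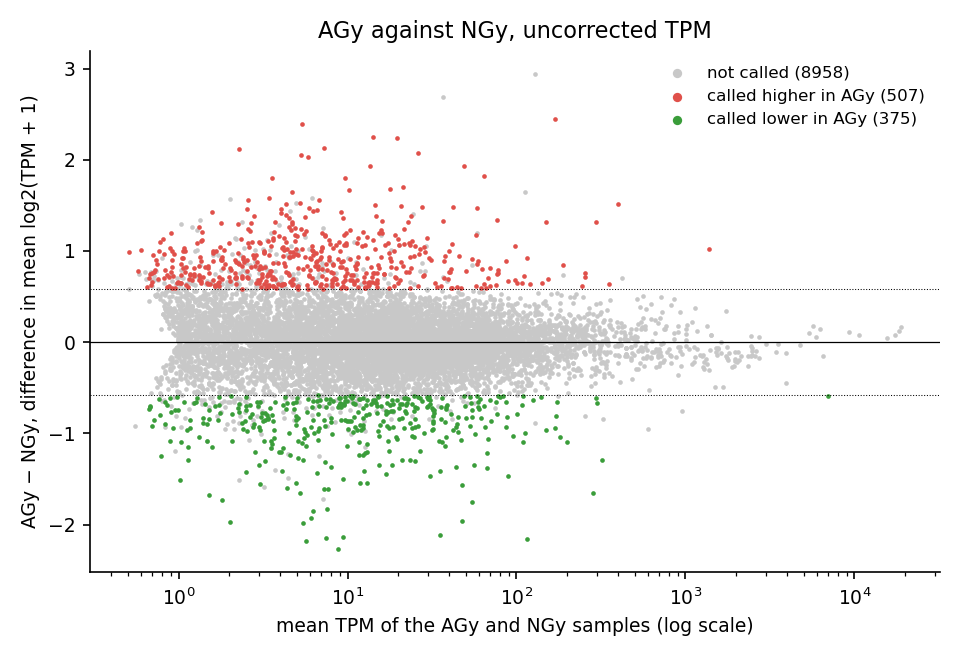
Change between AGy and NGy (vertical axis, difference in mean log2(TPM + 1)) against the mean TPM of the 8 samples (horizontal log axis), 1 point per gene of the 9840 tested; dotted lines mark 1.5-fold. The 507 genes called higher and the 375 called lower spread over the whole range of levels, with the largest called changes at 2.45 and -2.27, and the cloud narrows toward high TPM.

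Called genes were more frequent among genes of low level, where the spread between samples was also larger. Below 2 TPM, 149 of 1115 genes were called (13.4%), of which 104 were higher and 45 lower in AGy. From 2 to 5 TPM the share was 15.0% (132 higher and 66 lower of 1317), and from 5 to 20 TPM it was 10.03% (178 and 137 of 3141). Between 20 and 100 TPM it was 5.54%, with 76 higher and 108 lower of 3320, and at 100 TPM or more it was 3.80%, with 17 higher and 19 lower of 947. By the adjusted p alone, with no limit on fold, the shares in the same 5 classes were 20.6%, 22.8%, 21.5%, 18.5% and 14.6%, so that the decline with level was smaller without that limit. Among the calls, rises were more numerous than falls below 20 TPM and falls more numerous above it. The genes higher in AGy had a median level of 5.73 TPM and those lower a median of 11.0 TPM, against 15.9 TPM over all genes tested.

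The called genes made up a small part of the transcripts. Genes called higher held 2.09% of the listed TPM in AGy and 1.06% in NGy, and genes called lower held 1.88% and 3.19%. The most abundant gene called higher had a mean of 1373 TPM and the most abundant called lower 7024 TPM over the 8 samples. Crossing 1 TPM was uncommon. Of the genes called higher, 31 were under 1 TPM in every NGy sample and at 1 TPM or more in every AGy sample, and 20 of those called lower showed the converse. None of the called genes was listed at 0 in all samples of a group.

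Principal component analysis of the 8 irradiated samples separated the agents along the leading axis. PC1 held 47.6% of the variance, with the NGy samples between -27.3 and -10.4 and the AGy samples between 14.4 and 29.7. PC2 held 13.9% and divided the samples within the groups. NGy samples MO17 and MO18 lay at 16.8 and 14.5 and NGy samples MO19 and MO20 at -11.3 and -11.7, while the AGy samples lay between -10.6 and 5.44.

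**Figure D2:**
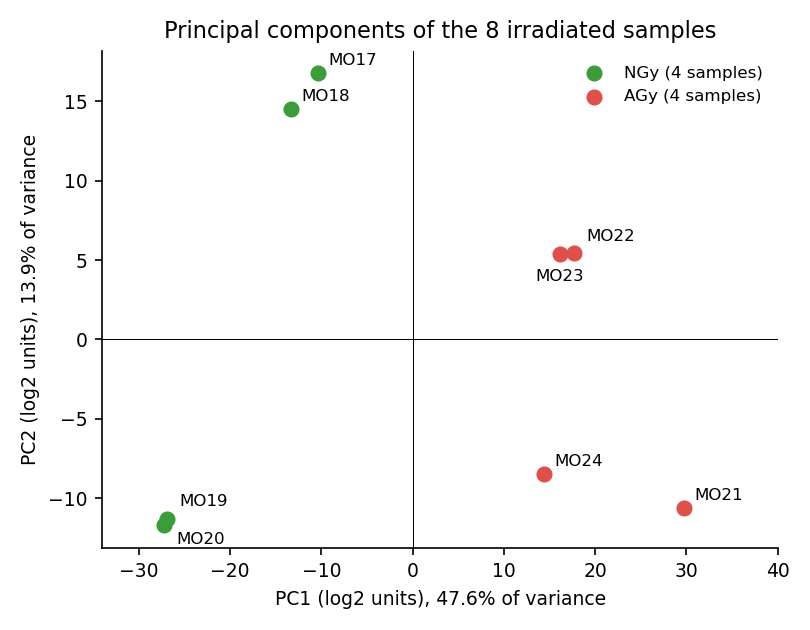
Principal components of log2(TPM + 1) in the 8 irradiated samples (horizontal axis PC1, 47.6% of the variance; vertical axis PC2, 13.9%), each point a sample coloured by agent. All NGy samples lie at -10.4 or below on PC1 and all AGy samples at 14.4 or above, and MO17 and MO18 lie apart from MO19 and MO20 on PC2.

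Distances between samples gave the same picture. Between an AGy and an NGy sample, log2(TPM + 1) differed by a root mean square of 0.508 on average over the 16 pairs (range 0.420 to 0.630). Within AGy it was 0.379 (0.312 to 0.433) and within NGy 0.355 (0.267 to 0.407), so that the lowest distance between the groups exceeded the highest in NGy but not the highest in AGy. The distance was 0.299 between MO17 and MO18 and 0.267 between MO19 and MO20, and 0.371 to 0.407 across these pairs. AGy sample MO21 stood farthest from the other AGy samples, at 0.387 to 0.433. The number of genes called without NGy sample MO19 was 584 and without NGy sample MO20 it was 590. Distances within CGy and N were not taken. In CGy samples MO13, MO14B, MO15 and MO16, ENSRNOG00000004681 (0.116, 2.26, 2.33 and 0.00117 TPM) did not divide in this way. Nor did ENSRNOG00000008943 (1.58, 2.89, 2.90 and 2.15 TPM). ENSRNOG00000043098 divided so in CGy and N, ENSRNOG00000001518 in CGy and ENSRNOG00000004681 in N. For ENSRNOG00000043098, CGy samples MO13 and MO14B held 139 and 133 TPM and MO15 and MO16 held 34.8 and 36.1 TPM, while N samples MO5 and MO6 held 54.8 and 82.3 TPM and MO7 and MO8 held 30.6 and 31.9 TPM. In the batch-corrected table, described last, the same gene stood at 46.3, 68.6, 36.2 and 49.2 TPM in NGy samples MO17 to MO20.

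The 4 genes given by identifier are the 2 largest rises and the 2 largest falls among the called genes whose samples did not overlap. ENSRNOG00000043098 had the largest rise. Its TPM were 278, 293, 317 and 210.0 in the AGy samples and 87.1, 126, 19.5 and 25.8 in the NGy samples. All 4 AGy samples were above all NGy samples, and within NGy the values of MO17 and MO18 exceeded those of MO19 and MO20. The means were 275 ± 46.0 and 64.6 ± 51.1 TPM (SD, n = 4 each), a ratio of 4.25, and the log2 change was 2.45 with a standard error of 0.55 (limma, adjusted p = 0.0194). The gene stood at 34.8 to 139 TPM in CGy, at 107 to 157 in A and at 30.6 to 82.3 in N. AGy was also above CGy, with a log2 change of 1.94 (adjusted p = 0.036 from limma), whereas the change of NGy against CGy was -0.51 (adjusted p = 0.782 from limma).

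ENSRNOG00000004681 had the other large rise, and it was a gene of low level. The AGy samples held 11.3, 9.40, 8.32 and 8.35 TPM and the NGy samples 0.039, 3.22, 2.34 and 2.54e-07 TPM. The groups did not overlap, and within NGy the values of MO17 and MO20 were near 0. Its log2 change was 2.39 with a standard error of 0.47 (limma, adjusted p = 0.0122), on a scale that understates the ratio of low values. With a pseudocount of 0.1 instead of 1 the change was 4.01 and the adjusted p from limma 0.0515. A samples ranged from 0.879 to 10.4 TPM and N samples from 0.00665 to 3.58 TPM, a log2 change of 1.82 that did not pass the test (adjusted p = 0.0733 from limma). Against CGy, at 0.00117 to 2.33 TPM, AGy differed by 2.46 (adjusted p = 0.0143 from limma) and NGy by 0.07 (adjusted p = 0.975 from limma).

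ENSRNOG00000001518 had the largest fall, and its values varied widely within groups. TPM were 0.399, 0.898, 3.27 and 7.38 in AGy and 23.2, 12.9, 11.8 and 10.8 in NGy. Every AGy sample was below every NGy sample, and the AGy samples were themselves far apart. The log2 change was -2.27 with a standard error of 0.53 (limma, adjusted p = 0.0224). Without AGy sample MO22 its adjusted p from limma was 0.0532, and without NGy sample MO19 it was 0.0521. A samples held 2.74 to 5.11 TPM and N samples 7.91 to 12.4 TPM, again without overlap, for a log2 change of -1.14 (adjusted p = 0.00523 from limma). CGy sample MO14B held 14.9 TPM, within the NGy range. CGy samples MO13, MO15 and MO16 held 2.98, 1.00 and 1.57 TPM, below every NGy sample and within the AGy range. Neither AGy (-0.44, adjusted p = 0.717) nor NGy (1.82, adjusted p = 0.184) passed the limma test against CGy.

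ENSRNOG00000008943 had the smallest standard error of the 4. AGy samples held 1.25, 1.19, 1.47 and 1.46 TPM and NGy samples 6.50, 7.78, 13.3 and 12.6 TPM. The lowest NGy sample was well above the highest AGy sample, and here MO19 and MO20 were above MO17 and MO18. The log2 change was -2.18 with a standard error of 0.20 (limma, adjusted p = 0.00222), and NGy was 7.47 times AGy by the ratio of means. In CGy the gene stood at 1.58 to 2.90 TPM, in A at 0.939 to 2.09 and in N at 3.10 to 5.61. NGy stood above CGy by 1.67 on the log2 scale (adjusted p = 0.024 from limma), without overlap. AGy lay below CGy by less (-0.51, adjusted p = 0.0483 from limma), under 1.5-fold, and every AGy sample was below every CGy sample.

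**Figure D3:**
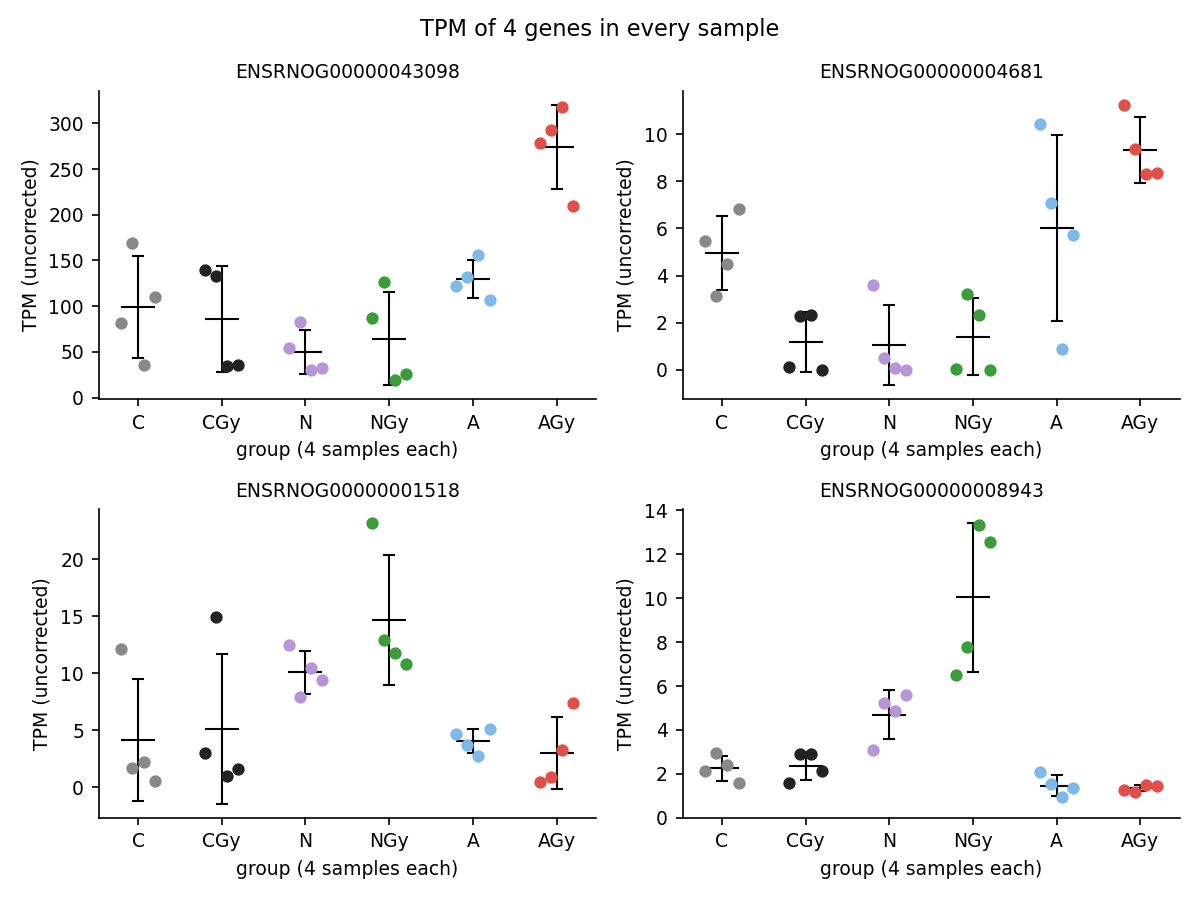
TPM of the 4 genes (vertical axes, linear) in the 6 groups of 4 samples (horizontal axes); each point is a sample, the horizontal bar the group mean and the error bar the SD. The AGy and NGy points do not overlap in any panel, with AGy at 210.0 to 317 TPM and NGy at 19.5 to 126 TPM for ENSRNOG00000043098, and the CGy points lie near NGy in the upper panels and near AGy for ENSRNOG00000008943.

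The same contrast was available without irradiation, in samples that had no part in choosing the genes. The label numbers of A also lie below those of N, so agent and numbering cannot be told apart here either. Ascorbic acid differed from Noggin at 1000 of 9906 genes in the non-irradiated NSps (10.1%), with 467 higher in A (4.71%) and 533 lower (5.38%). Of the 882 genes called after irradiation, 857 passed the level filter in A and N and 25 did not. The sign was the same in 842 of the 857 (98.2%), against 7507 of the 9684 genes tested in both contrasts (77.5%). Without irradiation 556 of them were also called in the same direction, which was 64.9% of the 857 and 55.6% of all genes called in A against N, and 0 were called in the opposite direction.

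Both directions of change were found again. Of the genes higher in AGy, 497 were tested in A against N, 483 had the same sign and 301 were called higher in A, with a median log2 difference of 0.74. Of the genes lower in AGy, 360 were tested, 359 had the same sign and 255 were called lower in A, with a median of -0.81. Every A sample was above every N sample in 363 of the 507 genes, against 13.8% of all genes tested, and below in 298 of the 375, against 13.5%. All 8 samples with ascorbic acid, irradiated or not, were above all 8 with Noggin in 259 of the 507 genes, where the share among all genes tested was 4.83%. They were below in 236 of the 375, where it was 5.06%. These last counts include the samples that chose the genes. Across all genes tested in both contrasts Pearson's r between the log2 changes was 0.77 and Spearman's rho 0.72, over genes, which are not independent replicates.

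Taken from the other side, 975 of the genes called in A against N were tested in AGy against NGy and 98.3% of them had the same sign. Genes called higher in A had a median difference of 0.85 without irradiation and of 0.79 with it. Genes called lower in A had medians of -0.83 and -0.65. The genes were chosen by A against N, which favours larger differences without irradiation, so these medians do not measure an effect of irradiation.

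**Figure D4:**
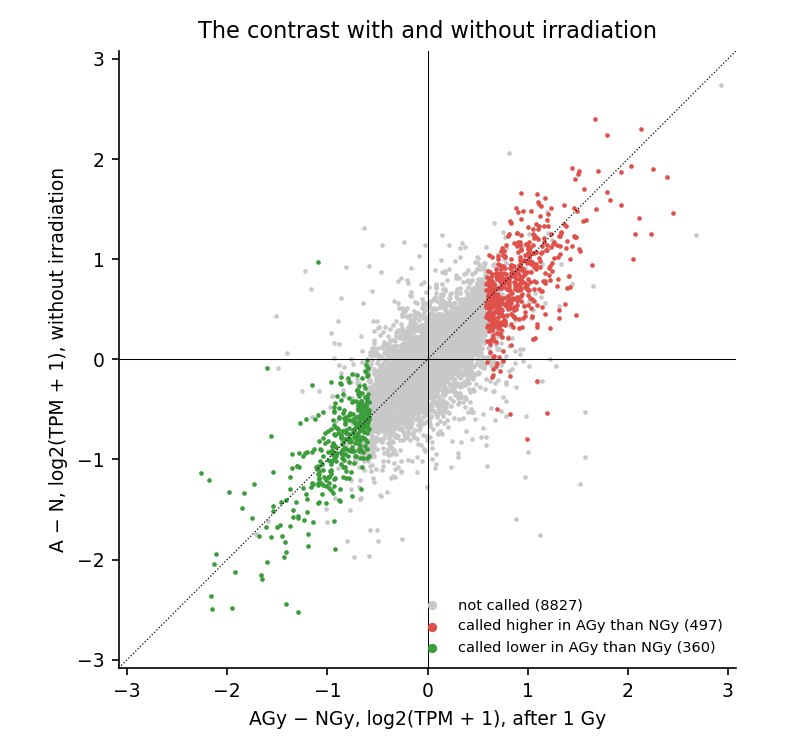
Log2 change between ascorbic acid and Noggin without irradiation (vertical axis, A minus N) against that after 1 Gy (horizontal axis, AGy minus NGy), 1 point per gene tested in both; the dotted diagonal marks equal changes. Of the called genes, 842 of 857 lie in the lower left and upper right parts, where the signs are equal.

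Whether the difference between the agents itself changed with irradiation was tested as an interaction over the 16 samples of AGy, NGy, A and N. In the uncorrected values 0 of 10062 genes were called by limma at an adjusted p of at most 0.05 (0%), the smallest adjusted p was 0.695, and 645 genes (6.41%) had an unadjusted p under 0.05. Among the genes called in AGy against NGy, 78 (8.84%) had an unadjusted p under 0.05. Those genes were chosen by their change after irradiation, which enters the interaction, so their share cannot be set against that over all genes. The median absolute interaction was 0.13 on the log2 scale and the 95% interval reached 0.35 to either side at the median gene, so changes of that size could not be told from 0. The log2 change of ENSRNOG00000008943 was -2.18 after irradiation and -1.20 without it, an interaction of -0.98 (standard error 0.29) that did not pass the test (limma, adjusted p = 0.695). For ENSRNOG00000043098 the changes were 2.45 and 1.46, an interaction of 0.99 with a standard error of 0.68 (limma, adjusted p = 0.838). Both genes were chosen for the size of their change after irradiation, which is a part of the interaction.

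The batch-corrected values gave a different count for the interaction. There, 24 of 10050 genes were called (0.239%), with 23 of them above 0 and 1 below, and log2 values from -1.08 to 1.28. The correction reduced the median SD within AGy and NGy, as given at the end, and such a reduction lowers p-values. Whether these calls follow from that reduction was not tested. The unadjusted p of these 24 genes in the uncorrected values ran from 0.000604 to 0.228. In the 23 genes the median uncorrected level was 8.52 TPM in A, 8.02 in AGy, 13.3 in N and 4.99 in NGy. In the corrected values their median log2 change with irradiation was -0.09 under ascorbic acid and -0.80 under Noggin, a description of genes chosen by the interaction itself. Of the 24 genes, 3 were also called in AGy against NGy, where 8.96% of all genes tested were called.

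Irradiated NSps with neither agent lay closer to the Noggin samples than to the ascorbic acid samples in most of the called genes. When NGy was set to 0 and AGy to 1, the median place of CGy was 0.196. CGy was nearer to NGy in 742 of the 882 genes (84.1%), against 6398 of all genes tested (65.0%). The numbers in the CGy labels also run with those of NGy and not of AGy, so nearness to NGy and the numbering cannot be told apart. CGy lay between the groups in 677, beyond NGy in 192 and beyond AGy in 13. For the 507 genes higher in AGy the median level relative to CGy was 0.71 in AGy and -0.15 in NGy on the log2 scale, and for the 375 lower genes it was -0.65 and 0.21.

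Tests against CGy were made for each agent, and these comparisons share the CGy samples. The AGy and NGy values that chose the genes also enter them, so the counts below describe the members and the shares over all genes are not what would be found without a difference. AGy against CGy had 334 genes called higher among 9847 (3.39%) and 298 lower (3.03%). NGy against CGy had 24 called higher among 9686 (0.248%) and 14 lower (0.145%). A division within CGy or NGy, as seen in NGy between MO17 and MO18 and MO19 and MO20, adds to the spread in these tests. No term for it was fitted because the labels give none. After the correction the calls numbered 137 in NGy against CGy and 892 in AGy against CGy, compared with 38 and 632 in the uncorrected values. The correction reduced the median SD within AGy and NGy, which lowers p-values. Leaving out single samples gave 17 to 53 genes for NGy against CGy and 268 to 636 for AGy against CGy, with 268 without CGy sample MO16, 301 without MO15 and 411 without AGy sample MO21. Of the 507 genes higher in AGy than in NGy, 261 were called higher in AGy than in CGy, and 5 of the 434 tested were called lower in NGy than in CGy. Of the 375 lower genes, 173 of the 354 tested were called lower in AGy than in CGy, and 14 of 375 were called higher in NGy than in CGy. Every AGy sample was above every CGy sample in 364 of the 507 genes (11.4% of all genes tested) and below in 245 of the 375 (12.2%). Every NGy sample was below every CGy sample in 51 of the 507 (6.71%) and above in 71 of the 375 (5.16%).

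The mean of each sample over the called genes, less the mean of the CGy samples, is a description of the samples, since AGy and NGy chose the genes. Over the 507 genes higher in AGy it was 0.85, 0.75, 0.62 and 0.77 in AGy samples MO21 to MO24 and 0.04, -0.02, -0.35 and -0.37 in NGy samples MO17 to MO20. The NGy samples MO17 and MO18 lay near the CGy mean and MO19 and MO20 below it. Over the 375 lower genes it was -0.95, -0.52, -0.60 and -0.52 in AGy and 0.16, 0.22, 0.35 and 0.37 in NGy, with MO21 the lowest. In the groups that did not choose the genes, A had 0.84 ± 0.13 over the higher genes and -0.73 ± 0.19 over the lower, and N had 0.08 ± 0.16 and 0.12 ± 0.09 (SD, n = 4 each).

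The untreated group was the most scattered in these genes. C had 0.12 ± 0.53 over the genes higher in AGy, from -0.57 in sample MO2 to 0.68 in MO4, and -0.56 ± 0.48 over the lower genes (SD, n = 4). Over the genes lower in AGy the mean of C thus lay closer to that of AGy, at -0.65 ± 0.20, than to that of NGy, at 0.27 ± 0.10 (SD, n = 4 each). The C samples there ran from -0.99 in MO4 to -0.02 in MO3. Over the genes higher in AGy the mean of C lay closer to that of NGy, at -0.17 ± 0.21, than to that of AGy, at 0.75 ± 0.10 (SD, n = 4 each). Sample MO2 is the one that the corrected table leaves out. The median difference of C from CGy was 0.12 over the higher genes and -0.58 over the lower with MO2, and 0.35 and -0.46 without it. Over all genes tested that difference was -0.21 with MO2 and -0.05 without it, so part of the offset was not particular to the called genes.

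**Figure D5:**
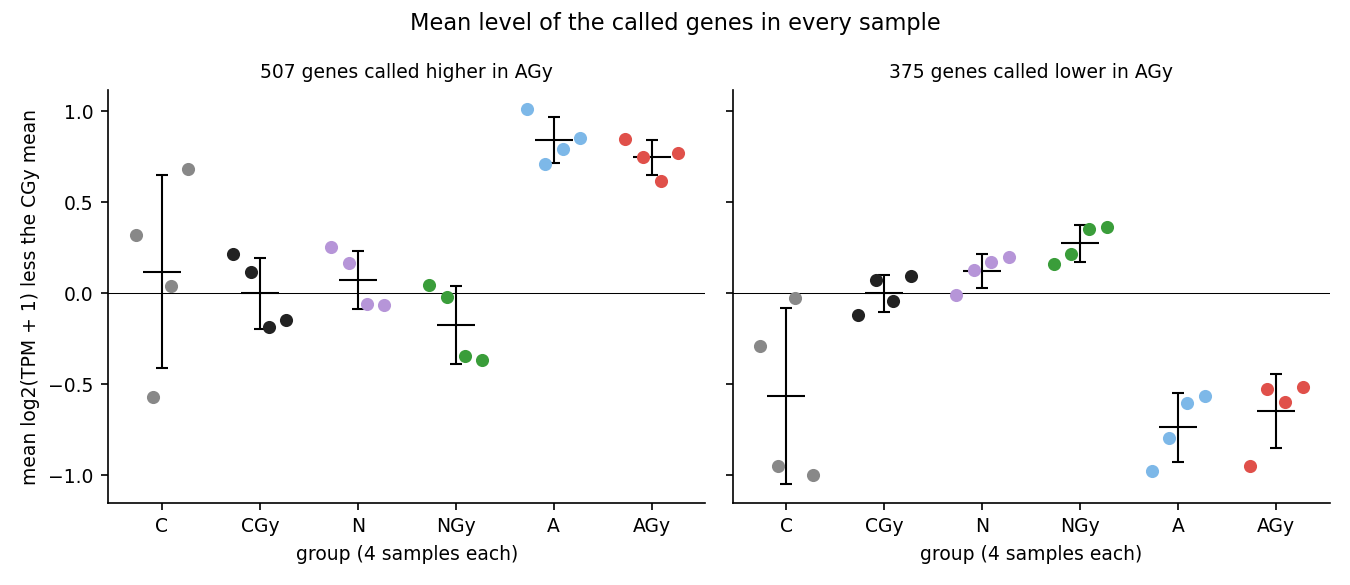
Mean log2(TPM + 1) of each sample over the 507 genes called higher (left panel) and the 375 called lower (right panel) in AGy, less the mean of the CGy samples (vertical axis), by group (horizontal axis); points are samples, horizontal bars group means and error bars the SD. A lies with AGy, at means of 0.84 and 0.75 over the higher genes, N lies near CGy, and the C samples spread from -0.57 to 0.68.

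In the batch-corrected table, 10.6% of 9822 genes were called between AGy and NGy, 601 of them higher and 440 lower in AGy. Both tables called 878 genes, all in the same direction, which is 99.5% of the uncorrected and 84.3% of the corrected calls. The correction left the changes themselves nearly as they were, for example 2.45, -2.27 and -2.18 in both tables for ENSRNOG00000043098, ENSRNOG00000001518 and ENSRNOG00000008943 (2.39 and 2.35 for ENSRNOG00000004681), and reduced the spread within groups. The equal direction and the overlap of the calls therefore follow from how the table was made, and its lower p-values from the reduced spread. The median SD within a group on the log2 scale was 0.17 in AGy and 0.13 in NGy before the correction and 0.12 and 0.087 after it. For ENSRNOG00000043098 the adjusted p from limma was 0.0194 before and 4.89e-05 after.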

How the data were processed

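PolyA RNA from 24 samples of rat NSps was sequenced by the study. The authors deposited TPM per gene, and the submitters' processing notes name STAR 2.6.1 and kallisto. A second deposited table holds a score that equals 0.5 × (NOISeq-corrected TPM + 1). Each score was doubled, 1 was subtracted, and corrected TPM below 0 were set to 0. That table leaves out C sample MO2. TPM keep no read counts, so depth is unknown and the errors given are spreads between samples. Columns were assigned to groups from the study's figures, because the labels carry other numbers than the columns. They could not be assigned to single labels, and 0 per-sample columns were left out.

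The uncorrected TPM were tested on log2(TPM + 1), in genes that averaged 1 TPM or more in a group of the comparison, with limma 3.58.1 in R 4.3.3, using only the samples of the comparison. The interaction was called at an adjusted p of at most 0.05 with no limit on fold. Figures were drawn with matplotlib 3.10.9. Alternatives were the corrected table, another pseudocount, level filter, threshold, scaling and variance model, a fit of all 6 groups and leaving out each sample; those for the comparisons with CGy were chosen after seeing the data. Genes were named as the 2 largest rises and 2 largest falls among called genes without overlap. Lists of BMP, astrocyte, antioxidant and other genes could not be used, as 0 of 16478 identifiers were paired with symbols. The members, lists and rules were chosen with earlier results of these data known.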

Additional observations from a re-analysis of the deposited data

Results flagged for a closer look

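In each group of 4 samples, the highest and lowest values of the library summaries, the principal components, the mean levels of the called genes and the 4 genes given by identifier were examined for a sample far from the others (a gap to the nearest sample that took up nearly the whole range of the group, above Dixon's critical value for 4 samples). Of 64 groups examined, 6 held such a sample, and chance gives about 1 in 20. AGy sample MO23 had the highest TPM sum, 655289. C sample MO2 had the fewest genes at 1 TPM or more, 8627. ENSRNOG00000004681 was high in N sample MO5, at 3.58 TPM. ENSRNOG00000001518 was high in C sample MO1 at 12.1 TPM, in CGy sample MO14B at 14.9 TPM and in NGy sample MO17 at 23.2 TPM. NGy sample MO17 raised the mean of that gene in NGy, but the 3 other NGy samples, at 10.8 to 12.9 TPM, were still above every AGy sample.

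The difference between ascorbic acid and Noggin was called as changed by irradiation for 24 genes in the interaction test on the batch-corrected values. In the uncorrected values it was called for 0 genes (limma, adjusted p at most 0.05, with 645 genes at an unadjusted p under 0.05). The correction reduced the median SD within AGy and NGy, which lowers p-values.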

How the results depend on the processing

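The number of genes called in AGy against NGy, 882, became 1955 with the adjusted p alone and 261 with at least 2-fold, and ranged from 584 (without NGy sample MO19) to 923 (without MO17) when single samples were left out. It was within 1.5 times of 882 under 15 of 18 alternatives, among them 745 with no level filter, 634 with at least 5 TPM and 955 with a pseudocount of 0.1. With quantile scaling 847 were called and 50.3% of them were higher in AGy, against 57.5%. The interaction had 0 calls under 23 of 24 alternatives, leaving out single samples included (0 to 0), and 24 in the corrected table. Against CGy, chosen after seeing the data, NGy had 38 calls, 137 in the corrected table and 17 to 53 without single samples (17 without CGy sample MO15, 19 without NGy sample MO19), and AGy had 632, 892 and 268 to 636. The number of called genes with the same sign in A against N stayed between 834 and 976 under 10 alternatives. The number of genes compared varied as well. The share with the same sign was 98.2% in the main setting, 97.8% with a pseudocount of 0.1 and 96.5% (976 of 1011) in the corrected table. It ran from 97.7% (without N sample MO5) to 98.4% (without A sample MO10) when single samples were left out. None of the 4 genes given by identifier changed direction. An adjusted p above 0.05 was found for ENSRNOG00000043098 without NGy sample MO20 (0.0517), for ENSRNOG00000004681 with a pseudocount of 0.1 (0.0515) and for ENSRNOG00000001518 without AGy sample MO22 (0.0532) or NGy sample MO19 (0.0521), and for ENSRNOG00000008943 under none of 16 alternatives. The causes were not tested. No paired analysis was possible because the columns carry no replicate numbers shared between the groups. Alternatives on gene lists were not run, since identifiers were not paired with symbols. Depth is unknown, so the counting error of genes near 1 TPM could not be given.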
